A study of Homo sapiens with 4 samples.

Results

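In cultures of OVCAR5, an established human ovarian carcinoma line, a small epithelial population with a high level of the keratin gene KRT81 was described. Whether this population belongs to that line was not tested. Its members were the kept cell barcodes in which KRT81 took at least 500 CPM. CPM is the count of a gene per 1e6 unique molecular identifiers (UMIs), and 1 UMI stands for 1 captured RNA molecule. Members were thus chosen by their measured KRT81 counts. The rule found 238 of 6408 kept barcodes, or 3.71% (exact binomial 95% interval 3.26 to 4.21%), of 10660 deposited. The share was 7.34% when barcodes needed 2000 genes and no more than 10% mitochondrial UMIs. They are called KRT81-high cells, and the 5772 kept barcodes with KRT81 under 50 CPM are called KRT81-low cells. Another 398 barcodes fell between both limits and entered no comparison. The lowest member had 505 CPM of KRT81, the median member 2906 CPM and the highest 13057 CPM, while the highest barcode outside had 489 CPM. Between 200 and 500 CPM lay 30 barcodes, and 5695 kept barcodes had no KRT81 UMI.

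All cells came from 1 pool of cultures in IMDM, measured by single-cell RNA sequencing of 3′ ends in droplets. The labels name 24 conditions, with no supernatant, undiluted supernatant or supernatant diluted 5, 25, 125 or 625 times, each for 2, 6, 12 or 24 h. The supernatant came from tumor cells cocultured with T cells, and no label gives a genotype. Each condition was 1 culture, marked by a pair of antibody-borne hashtags, and no source used here ties a pair to a dose or a time.

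Keratins form the intermediate filaments of epithelial cells, and KRT81 is best known from hair. MTAP, which salvages methionine from methylthioadenosine, and CDKN2A, which encodes the cell cycle inhibitor p16, are neighbours on chromosome 9p and are often lost together in tumors. T cells release interferon gamma, which acts on antigen presentation genes and chemokines, and TNF, which acts through NF-κB on inflammatory genes. The values below therefore describe first what marks the KRT81-high cells, and then how they moved with both gene programs.

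The promoters of 3 chemokine or interferon-response genes on which the results turn are shown as the 250 bases before each start (RefSeq, GRCh38.p14), 5′ to 3′ on the strand of the gene. Capitals mark matches on either strand to the core of the interferon-stimulated response element (GAAA, any 2 bases, then GAAA) or to a core of the NF-κB site (GGNNNTTCC). CXCL10, a chemokine that attracts T cells, lies on the minus strand at chr4:76023498-76023747. GBP1, an interferon-induced GTPase, lies on the minus strand at chr1:89065209-89065458, and CXCL8, a chemokine that attracts neutrophils, on the plus strand at chr4:73740319-73740568.
CXCL10: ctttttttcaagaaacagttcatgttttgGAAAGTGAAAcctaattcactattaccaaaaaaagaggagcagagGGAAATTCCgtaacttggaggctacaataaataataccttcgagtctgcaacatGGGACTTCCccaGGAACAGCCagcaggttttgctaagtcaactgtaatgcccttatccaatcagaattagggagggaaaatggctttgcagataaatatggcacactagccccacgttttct
GBP1: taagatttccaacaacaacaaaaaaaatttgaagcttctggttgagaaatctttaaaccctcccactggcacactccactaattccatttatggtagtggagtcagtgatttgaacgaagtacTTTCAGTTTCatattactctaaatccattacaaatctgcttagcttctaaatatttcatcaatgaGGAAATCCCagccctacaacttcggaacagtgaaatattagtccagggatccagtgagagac
CXCL8: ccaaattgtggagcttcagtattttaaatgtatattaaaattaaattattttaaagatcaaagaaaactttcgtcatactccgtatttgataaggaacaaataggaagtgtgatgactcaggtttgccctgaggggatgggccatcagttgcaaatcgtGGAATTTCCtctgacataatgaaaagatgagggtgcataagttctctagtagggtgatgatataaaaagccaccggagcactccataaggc
The CXCL10 window held 1 interferon-stimulated response element core and 3 NF-κB cores, that of GBP1 held 1 of each, and that of CXCL8 held 1 NF-κB core. Of 35116 promoters of the same length, 3.02% held the first motif and 17.1% the second. The gamma-activated site TTCNNNGAA, present in 6.57% of promoters, matched in none of these 3 windows. These matches are letters in a sequence and were not tested as binding sites.

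KRT81-high barcodes were deeper than the others and less often carried a clear hashtag pair. Their median depth was 18553 UMIs and 4730 genes, against 13430 UMIs and 3749.5 genes in KRT81-low cells. Their median mitochondrial share was 5.94%, against 10.6%. A clear tag pair was found for 139 of 238 (58.4%), compared with 83.6% of KRT81-low cells, and the 99 members without one had a median of 23440 UMIs. No doublets were removed by a caller, so the RNA of the other population was measured in each member.

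Some members held RNA of the other population. For 5 genes that are abundant in KRT81-low cells and nearly silent in most members (CTNNA1, HEXA, CAVIN1, RAB5C and CYBA, chosen after their values were seen), the summed level was 1322 CPM in KRT81-low cells. Barcodes at 20% or more of that level are called mixed barcodes, and they made up 74 of 238 members (31.1%, exact binomial 95% interval 25.3 to 37.4%). Only 13 of 139 members with a tag pair were mixed (9.35%), against 61 of 99 without one (61.6%). The 5 genes stood at 19.1% of the KRT81-low level over all members, at 6.03% in members with a tag pair, and at 1.92% in members with a pair that were not mixed. Barcodes from 50 to 200 CPM of KRT81, outside the rule, held the 5 genes at a median of 93.4% of the KRT81-low level. Members near the limit rested on few reads, since the 15 members from 500 to 600 CPM had a median of 1 KRT81 UMI, while 211 members had at least 10.

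**Figure D1:**
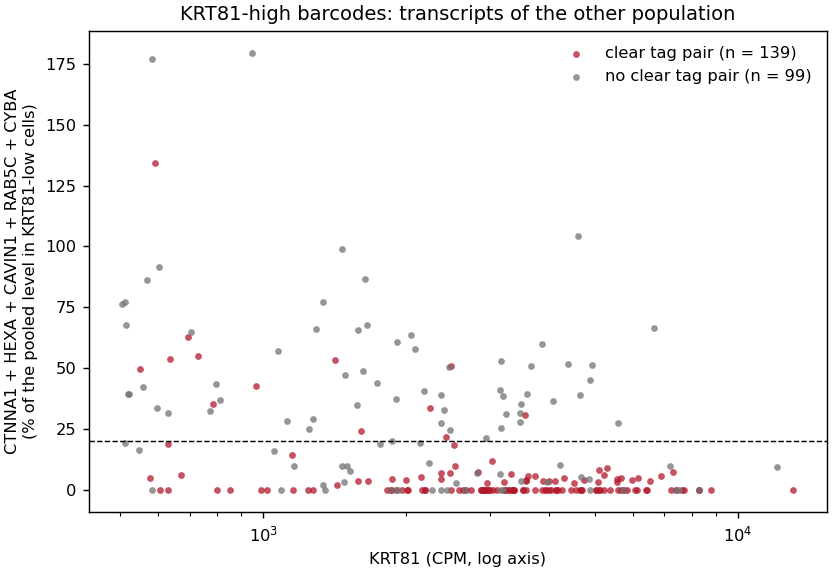
Each point is 1 of 238 KRT81-high barcodes, with KRT81 in CPM on a log axis and the summed CPM of 5 genes of the other population as a percentage of their pooled KRT81-low level. The dashed line is 20%, and 61 of the 99 barcodes without a clear tag pair lie on or above it, against 13 of the 139 with one.

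KRT81-high cells were found in 23 of 24 tag pairs. The share among barcodes with a pair was 2.62% (139 of 5298, exact binomial 95% interval 2.21 to 3.09%). By pair it ran from 0 of 165 cells in HTO4/HTO8, with an upper limit of 2.21%, to 11 of 228 cells in HTO4/HTO9 (4.82%), with a median of 2.79%. They were thus a minority in every culture in which they were found.

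The levels that follow describe the cells and carry no test, because the rule chose them on the same counts. Of the 7 markers given for the population, each was higher in KRT81-high than in KRT81-low cells of the same culture in 20 of the 20 tag pairs that had at least 3 members. These pairs held 133 members, from 3 to 11 a pair, with 34812 to 189731 UMIs, and a count of 3 was worth 15.8 to 86.2 CPM. Intervals are exact or conditional 95% intervals and cover counting error only.

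KRT81 (chr12:52285913-52291534 on GRCh38) stood at 1212, 3657 and 5310 CPM in the lowest, median and highest of the 20 pairs. Over all members its pooled level was 3175 CPM, against 0.931 CPM in KRT81-low cells. KRT81, KRT83 and KRT86 are near-identical, and reads shared between them may be misassigned or lost.

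S100A9, a calcium-binding protein best known from neutrophils, ran from 508 through 890 to 3099 CPM in the lowest, median and highest pair. Its pooled level was 924 CPM against 2.57 CPM, a ratio of 360 (314 to 415). LDHB, the lactate dehydrogenase subunit that prevails in heart muscle, ran from 373 through 649 to 1050 CPM, and pooled it was 558 CPM against 0.549 CPM. In the KRT81-low population LDHB was thus close to silent, whereas the KRT81-high cells of every pair held at least 373 CPM. EPCAM, an epithelial adhesion molecule, was less exclusive, at 278 CPM against 35.6 CPM and a ratio of 7.79 (7.29 to 8.33). CDH1, the E-cadherin of epithelial junctions, stood at 50.05 CPM against 0.155 CPM and was present in all 20 pairs, from 25.8 to 144 CPM.

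The contrasts remained at equal depth. With each cell thinned to 3000 UMIs, which kept 138 of 139 KRT81-high and 4788 of 4824 KRT81-low cells with a tag pair, LDHB had a UMI in 78.3% against 0.146% of cells. The unthinned shares were 99.3% and 0.647%. For CDKN2A the thinned shares were 25.4% and 0.0209%, and for STAT3, a transcription factor downstream of cytokine receptors, they were 1.45% and 21.0%.

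CDKN2A and MTAP were transcribed in KRT81-high cells and nearly absent from KRT81-low cells. MTAP (chr9:21802543-21937651) ran from 25.8 through 57.7 to 114 CPM in the lowest, median and highest pair, and pooled it was at 45.2 CPM against 0.131 CPM (ratio 344, 188 to 700). CDKN2A (chr9:21967753-21995301) ran from 23.4 through 66.5 to 120 CPM and pooled was at 70.1 CPM against 0.107 CPM (ratio 652, 339 to 1439). CDKN2B, the adjacent gene for the inhibitor p15, had 24 UMIs in KRT81-high cells and 0 in KRT81-low cells, which is at least 149-fold higher against a floor of 3 counts over the KRT81-low group. ELAVL2, a neuronal RNA-binding protein gene in the same stretch, was at 29.6 CPM against 3 UMIs in all KRT81-low cells (ratio 826, 277 to 4055).

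The difference was uneven along 9p. Of 26 protein-coding genes within 2.5 Mb of CDKN2A, 14 had no UMI in either population. FOCAD, a gene on the MTAP side, was at 20.02 CPM against 5.05 CPM, and KLHL9, an adaptor of a ubiquitin ligase, was at 13.6 CPM against 7.39 CPM. DMRTA1, which lies between CDKN2B and ELAVL2, was at 4.67 CPM against 2.16 CPM, or 181 UMIs in KRT81-low cells. KRT81-low cells therefore had reads from these 3 genes but nearly none from MTAP, CDKN2A, CDKN2B or ELAVL2. Elsewhere on 9p, the ribosomal protein gene RPS6 was at 1779 CPM against 1025 CPM and the chaperone gene DNAJA1 at 377 CPM against 398 CPM. PLIN2, a lipid droplet protein gene on 9p outside that window, was at 21.8 CPM against 0.167 CPM. Over the 61 genes of 9p with at least 20 CPM in either population the median log2 ratio was 0.15, against 0.20 over 196 genes of 9q and 0.06 over 6387 genes elsewhere. Under 1 CPM in KRT81-low cells were 4 of the 61 on 9p, 0 of the 196 on 9q and 70 elsewhere. DNA copy number was not measured.

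The reverse pattern also occurred, with genes that KRT81-low cells transcribed and KRT81-high cells hardly did. STAT3 (chr17:42313324-42388568) was at 2.91 CPM in KRT81-high cells with a tag pair against 75.4 CPM in KRT81-low cells, or 3.86% of that level, and at 0.924 CPM without the mixed barcodes. Of 27 genes within 1 Mb of STAT3 with at least 20 CPM in KRT81-low cells, 4 were under 10% of that level: STAT3, the vesicle gene RAB5C (7.03%), the caveolar gene CAVIN1 (6.92%) and the proton pump subunit gene ATP6V0A1 (1.48%). Their neighbours NKIRAS2 and COASY stood at 76.1% and 88.3%. CTNNA1, which links cadherins to actin, was at 5.83% of the KRT81-low level, and HEXA, a lysosomal enzyme, at 4.94%. These stretches were chosen after their values were seen. Over all genes, at the higher limit of 40 CPM in KRT81-low cells, 46 of 3611 were under 10% in members with a tag pair. The 5 genes used to mark mixed barcodes, 4 of which are among those named here, stood at 6.03% in the same members, and the part of carried RNA in the levels that remained was not tested.

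**Figure D2:**
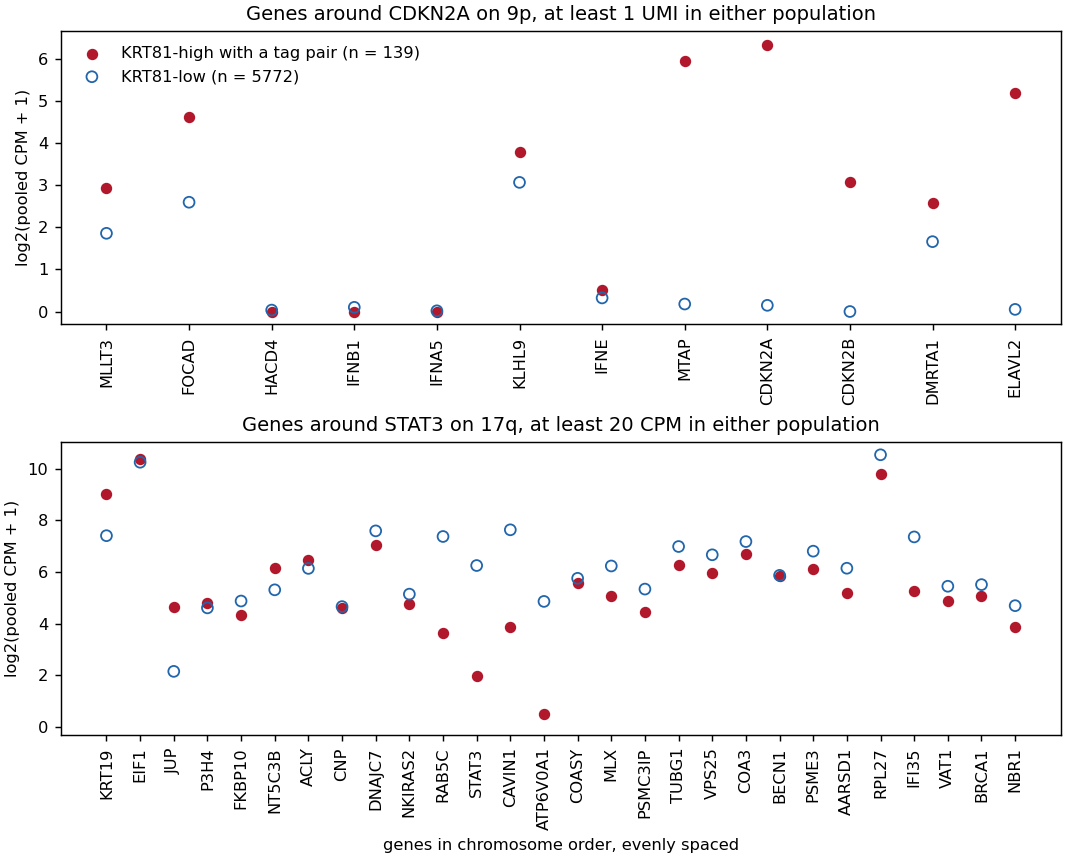
Pooled levels, as log2(CPM + 1), of genes in chromosome order around CDKN2A (top) and STAT3 (bottom), with filled red points for KRT81-high cells with a tag pair and open blue circles for KRT81-low cells. MTAP, CDKN2A, CDKN2B and ELAVL2 are near 0 in KRT81-low cells only, whereas STAT3, CAVIN1, RAB5C and ATP6V0A1 are low in KRT81-high cells while their neighbours NKIRAS2 and COASY stood at 76.1% and 88.3% of the KRT81-low level.

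Over the whole transcriptome, 92 of 6658 genes with at least 20 CPM in either population were at least 4-fold higher in KRT81-high cells (1.38%) and 11 were at least 4-fold lower (0.165%), on the log2(CPM + 10) scale. In members with a tag pair these counts were 129 and 83 of 6818, and without mixed barcodes 134 and 95 of 6827. Since the rule used this contrast, the counts are a description only.

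The 15 genes with the highest ratios had varied roles. Besides KRT81, S100A9 and LDHB, they included MAL2, a protein of apical transport, at 553 CPM against 22.99 CPM, and S100A14 at 279 CPM against 2.70 CPM. LAD1, a protein of epithelial anchoring filaments, was at 188 CPM against 6.84 CPM, MIR205HG, the host transcript of an epithelial microRNA, at 111 CPM against 0.119 CPM, and KRT75 at 78.3 CPM against 0.167 CPM. INHBA, the subunit of activin A, was at 170 CPM against 11.3 CPM. The others were PMEPA1, SRGN, CRABP2, RAMP1, CDA and ANK3, at 111 to 535 CPM against 0.561 to 31.3 CPM. At the other end, the intermediate filament gene VIM was at 535 CPM over all members and 266 CPM in members with a tag pair, against 2303 CPM. NT5E, an ecto-enzyme that makes adenosine, was at 49.2 CPM against 229 CPM, and FGFR1, a growth factor receptor, at 52.7 CPM against 250 CPM.

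By gene list, KRT81-high cells had more epithelial, keratin and S100 transcripts in each of 20 tag pairs. The keratin list holds KRT81 itself, and without it (a sum made after the values were seen) the list ran from 2644 through 4333 to 5829 CPM against 2206, 3390 and 3831 CPM, still higher in 20 of 20 pairs. The summed epithelial list ran from 1445 through 1797 to 2729 CPM in KRT81-high cells, above the 595 to 777 CPM of the KRT81-low cells, so the groups did not overlap. The mesenchymal list ran from 1423 through 1787 to 2486 CPM, below the 3824 to 4895 CPM of the KRT81-low cells. VIM, a member of that list, carried much of this contrast, at 266 CPM in members with a tag pair against 2303 CPM. The whole list summed to 1883 CPM in members with a tag pair against 4293 CPM, and no sum without VIM was made. Single members of that list went the other way, as the cadherin gene CDH2 was at 32.0 CPM in members with a pair against 0.0478 CPM, and the transcription factor gene TWIST1 at 25.8 CPM against 0.0478 CPM. The splicing regulator ESRP1, restricted to epithelia, was at 49.9 CPM against 0.119 CPM.

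Simple epithelial keratins and secreted antimicrobial proteins were among the abundant members. KRT7 and KRT19, keratins of simple epithelia, were at 1097 CPM and 522 CPM in members with a tag pair against 532 CPM and 169 CPM, and each was higher in 20 of 20 pairs. KRT18 differed less, at 1862 CPM against 1595 CPM, and was higher in 15 of 20 pairs. The protease inhibitor SLPI was at 523 CPM against 43.8 CPM, the related inhibitor PI3 at 71.1 CPM against 1.03 CPM, and S100A2 at 310 CPM against 23.3 CPM. S100A8, which pairs with S100A9 in calprotectin, was far below its partner, at 15.4 CPM. The junction gene CLDN7 was at 107 CPM against 5.18 CPM.

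Cell cycle and metabolic lists differed less. Genes of S phase ran from 1375 through 2006 to 3001 CPM, against 852, 2080 and 2373 CPM, and were higher in KRT81-high cells in 10 of 20 pairs. Genes of the G2 and M phases ran from 3016 through 3654 to 6169 CPM, against 3176, 6200 and 7783 CPM, and were higher in 2 of 20 pairs. A list of cell cycle regulators ran from 1187 through 1551 to 1944 CPM and was higher in 19 pairs. It holds inhibitors, CDKN2A among them, but also cyclin and kinase genes such as CCND1 and CDK4. Its sum is thus not a level of inhibitors. The methionine cycle list, which includes MTAP, was higher in all 20. Glycolysis genes, LDHB included, overlapped, at 6837, 8170 and 9248 CPM against 8015, 8807 and 9032 CPM.

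Lists of tissue markers differed in direction in members with a tag pair. The breast list summed to 98.9 CPM against 38.0 CPM and was higher in 20 of 20 pairs, although 5 of its 11 genes had no UMI in any member. The gastrointestinal list summed to 5.82 CPM against 87.5 CPM and was higher in 0. Of the ovarian and Müllerian list, PAX8 was at 1.25 CPM against 3.19 CPM, WFDC2 at 3.32 CPM against 25.6 CPM and WT1 at 2.91 CPM against 0.0239 CPM, and MUC16, MSLN and SOX17 had no UMI. FOXA1 and GATA3, transcription factors of luminal breast and other epithelia, were at 48.6 CPM and 10.8 CPM against 3.05 CPM and 3.27 CPM. SFN was at 125 CPM against 189 CPM and SERPINB5 at 36.2 CPM against 5.76 CPM among squamous genes, but KRT5 and KRT14 had no UMI, and of hair keratins only KRT81 was abundant. TRBC2, a T cell receptor constant gene, was at 78.1 CPM against 0.0358 CPM, while CD3D, CD3E, CD3G and PTPRC had no UMI. The myeloid list summed to 27.0 CPM against 30.5 CPM and was higher in 7 of 20 pairs, although its genes TYROBP and CSF1R had no UMI. The endothelial list had none. The label epithelial thus fitted the markers, and no tissue of origin was assigned.

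In the same cultures, genes induced by interferon gamma were at lower summed levels in KRT81-high cells. The list of 28 such genes ran from 412 through 2672 to 8818 CPM over the 20 pairs, against 671, 4555 and 16873 CPM in KRT81-low cells, and was higher in 0 pairs. MHC class I genes, which present antigen to CD8 T cells, ran from 1589 through 3142 to 5786 CPM against 3399, 5712 and 11466 CPM. NF-κB targets ran from 775 through 1378 to 4970 CPM against 794, 2220 and 6709 CPM, and were higher in 4 pairs. Inflammatory cytokines were at 477, 1415 and 9049 CPM against 124, 805 and 2817 CPM, and were higher in KRT81-high cells in 17 of 20 pairs. CXCL8 carried much of this sum, since without it the list was at 277, 466 and 6205 CPM against 119.99, 679 and 2695 CPM and was higher in 10 of 20 pairs.

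**Figure D3:**
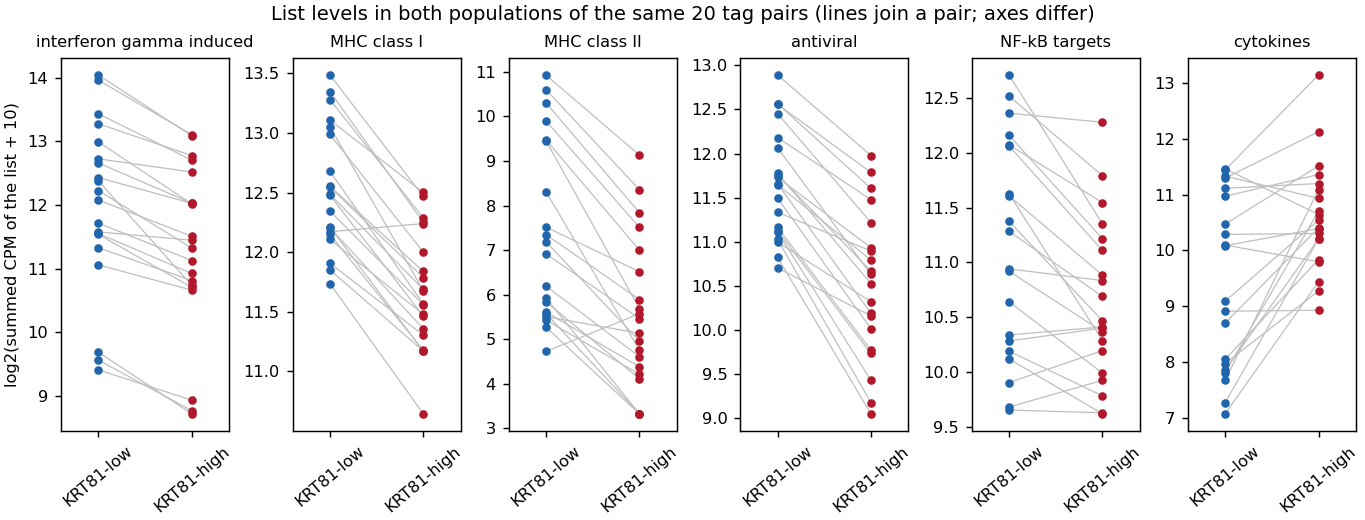
Summed levels of 6 gene lists, as log2(summed CPM + 10), in KRT81-low (blue) and KRT81-high (red) cells of the same 20 tag pairs, with a grey line joining each pair and a separate axis for each list. The lines fall in all 20 pairs for the interferon gamma and antiviral lists and climb in 17 pairs for the cytokines, a list that without CXCL8 was higher in 10.

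Of the single genes named next, GBP1 departed from its list, while B2M, IDO1, CD74 and IFI27 were lower, as their lists were. GBP1 was higher in KRT81-high cells in 20 of 20 pairs, at 11.7, 536 and 1770 CPM in the lowest, median and highest pair against 6.15, 179 and 781 CPM. B2M, the light chain of MHC class I, was at 360, 941 and 2038 CPM against 1609, 2741 and 5445 CPM. It was lower in KRT81-high cells in each pair, although the ranges of both groups overlapped in part. IDO1, a tryptophan-degrading enzyme, had 0 UMIs in 4 pairs and a median of 19.5 CPM and a highest value of 441 CPM, against 13.3, 119 and 2274 CPM. CD74, the invariant chain of MHC class II, was at 0 in 7 pairs and reached 334 CPM, against 11.3 to 1383 CPM. IFI27, an interferon-induced mitochondrial protein, was at 75.6 CPM in members with a pair and 26.3 CPM without mixed barcodes, against 884 CPM in KRT81-low cells.

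Of the NF-κB targets and cytokines, the single genes CXCL8, CXCL3 and IER3 showed the opposite contrast. CXCL8 was at 181, 840 and 2896 CPM in the lowest, median and highest pair of KRT81-high cells, against 4.44, 23.9 and 755 CPM, and was higher in 20 of 20 pairs. CXCL3 was at 62.6, 137 and 2930 CPM against 3.94, 41.2 and 314 CPM, and IER3, a stress-response gene, at 281, 343 and 1724 CPM against 71.3, 132 and 693 CPM. Reads of CXCL1, CXCL2 and CXCL3 can be exchanged between these paralogs. NFKBIA, the inhibitor that NF-κB itself induces, went the other way, at 27.7, 105 and 689 CPM against 35.7, 237 and 1456 CPM.

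The list of 20 cytokine receptor and signal genes summed to 569 CPM in members with a tag pair against 767 CPM, and was lower in KRT81-high cells in 20 of 20 pairs. STAT3, at 2.91 CPM against 75.4 CPM, is a member of this list, and no sum without it was made. IFNGR2, a chain of the interferon gamma receptor, was at 51.5 CPM in members with a tag pair against 60.7 CPM, and IFNGR1, the other chain, at 11.2 CPM against 14.6 CPM. The kinase genes JAK1 and JAK2 were at 126 CPM and 8.73 CPM against 73.4 CPM and 10.6 CPM. The TNF receptor gene TNFRSF1A was at 50.7 CPM against 115 CPM and was lower in KRT81-high cells in 20 of 20 pairs.

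How KRT81-high cells moved across cultures was tested, because the rule used the KRT81 level and no response gene. KRT81 itself fell with the interferon gamma list, so membership may not be independent of the response. As no dose or time is known for a pair, each culture was placed by the summed interferon gamma and NF-κB lists in its even-numbered KRT81-low cells, which ran from 586 to 17407 CPM and from 741 to 6837 CPM. The slope of a gene is its log2 change per doubling of 1 list with the other held in the same model. It was tested over 20 tag pairs with edgeR's quasi-likelihood test and Benjamini-Hochberg adjustment over all genes tested, and its standard error (SE) is approximate. These lists measure response and not exposure, each pair is 1 culture, and cultures share doses and times by design, so p-values may be too small.

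With the interferon gamma list, 61 of 2659 genes rose in KRT81-high cells (2.29%) and 43 fell (1.62%). In KRT81-low cells of the same pairs, summed over far more UMIs, 918 of 9508 genes rose (9.66%) and 727 fell (7.65%). Of the 28 interferon gamma genes, 16 passed the filter on low counts and 15 of these rose, with a median slope of 1.09 against 0.002 for all genes. Members that passed it partly did so through the cultures in which they were high. Of 34 antiviral genes 8 were tested and 7 rose, and of 15 MHC class I genes 10 were tested and 6 rose, while the rest were too low to be tested or did not pass. KRT81, which chose the cells, is counted among those that fell and is not read further.

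CD74 had the steepest slope in KRT81-high cells, 2.81 ± 0.28 (SE, edgeR adjusted p = 6.6e-10), although it was at 0 in 7 of 20 pairs. It was not tested in 4 of the 20 fits that left out 1 pair, nor without mixed barcodes, because it then failed the filter. GBP5, a GTPase like GBP1, rose by 2.18 ± 0.17 (adjusted p = 7.1e-13), from 0 CPM in 6 pairs to 344 CPM. The immunoproteasome subunit PSMB9, the chemokines CXCL11 and CXCL9 and the GTPase GBP4 had slopes of 1.81, 1.80, 1.64 and 1.63.

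Other interferon gamma genes rose less steeply. GBP1 rose by 0.86 ± 0.12 (adjusted p = 6.9e-07) and B2M by 0.45 ± 0.07. IDO1 rose by 1.43 ± 0.21 (adjusted p = 4.1e-06) and CXCL10 by 0.99 ± 0.16 (adjusted p = 2.8e-05). By pair, the 5 genes that mark mixed barcodes stood at 0 to 32.6% of the KRT81-low level, with a median of 2.60%. The highest was HTO6/HTO9, where IDO1 was at 103 CPM against 1058 CPM. Of 104 genes called on this list, 100 were also tested without mixed barcodes and 85 kept their call. The part of carried RNA in these slopes was not tested. IRF1, a transcription factor that both pathways induce, did not pass the test on the interferon gamma list (0.11, adjusted p = 0.79) and rose with the NF-κB list by 0.70 ± 0.17 (adjusted p = 0.021).

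Of the genes that fell with the interferon gamma list, the 10 steepest included CXCL8, by 0.85 ± 0.10 (adjusted p = 7.6e-08) at a given NF-κB level. With the interferon gamma list alone in the model, CXCL8 no longer passed (-0.34, adjusted p = 0.22). The adhesion gene AMIGO2, the pattern recognition protein PTX3, the matrix protein THBS1 and the secreted glycoprotein STC2 had slopes of -0.87, -0.83, -0.78 and -0.77. PTX3 lost its call without HTO2/HTO10 (adjusted p = 0.072), a pair with 3 members. The coagulation initiator F3, at -0.70, lost it without HTO1/HTO10, HTO3/HTO10 or HTO4/HTO9, and the matricellular gene CCN1, at -0.64, without HTO3/HTO10, HTO4/HTO9 or HTO5/HTO9. The other 3 were AGR2 (-0.67), GPRC5A (-0.63) and CYP1B1 (-0.63), and CYP1B1 lost its call in 14 of 20 such fits. PTX3, AGR2, CCN1 and CYP1B1 also lost it with that list alone.

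With the NF-κB list, 25 of 2659 genes rose in KRT81-high cells (0.94%) and 5 fell (0.188%), against 395 (4.15%) and 254 (2.67%) of 9508 genes in KRT81-low cells. Of the list's own 24 targets 9 were tested and 5 rose, with a median slope of 0.74 against -0.007 for all genes. Of 24 cytokine genes 4 were tested and 3 rose. Here too, members that passed the filter on low counts partly did so through the cultures in which they were high. TNFAIP2, a TNF-induced protein, rose by 1.89 ± 0.22 (adjusted p = 1.2e-07), NFKBIA by 1.56 ± 0.14 (adjusted p = 9.2e-11), and CXCL2 and CXCL3 by 1.67 and 1.53. CXCL10 rose by 1.38 ± 0.20 (adjusted p = 1.6e-05) and CXCL8 by 1.07 ± 0.13 (adjusted p = 5.4e-07). CXCL8 did not pass with the NF-κB list alone in the model (0.37, adjusted p = 0.43), and CXCL3 had a slope of 0.84 without HTO2/HTO10. CXCL10 thus rose with both lists, whereas GBP1 did not pass on the NF-κB list (0.12, adjusted p = 0.85).

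Calls on this list were fewer when cells were filtered more strictly, with 12 genes called when cells needed 2000 genes and no more than 10% mitochondrial UMIs. The slopes of PTX3 (1.17), CYP1B1 (1.02), ICAM1 (0.93) and CXCL11 (0.93) each lost their call without 1 pair, namely HTO2/HTO10, HTO3/HTO10, HTO8/HTO10 and HTO8/HTO10. Among the genes that fell, the cell cycle gene CDCA7L (-0.60) lost its call without HTO7/HTO9 or HTO8/HTO10. The chaperone subunit CCT6A (-0.29) lost it in 11 of 20 such fits, the chaperone HSPD1 (-0.25) in 7 and the nucleolar gene NPM1 (-0.23) without HTO2/HTO10 or HTO7/HTO9.

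**Figure D4:**
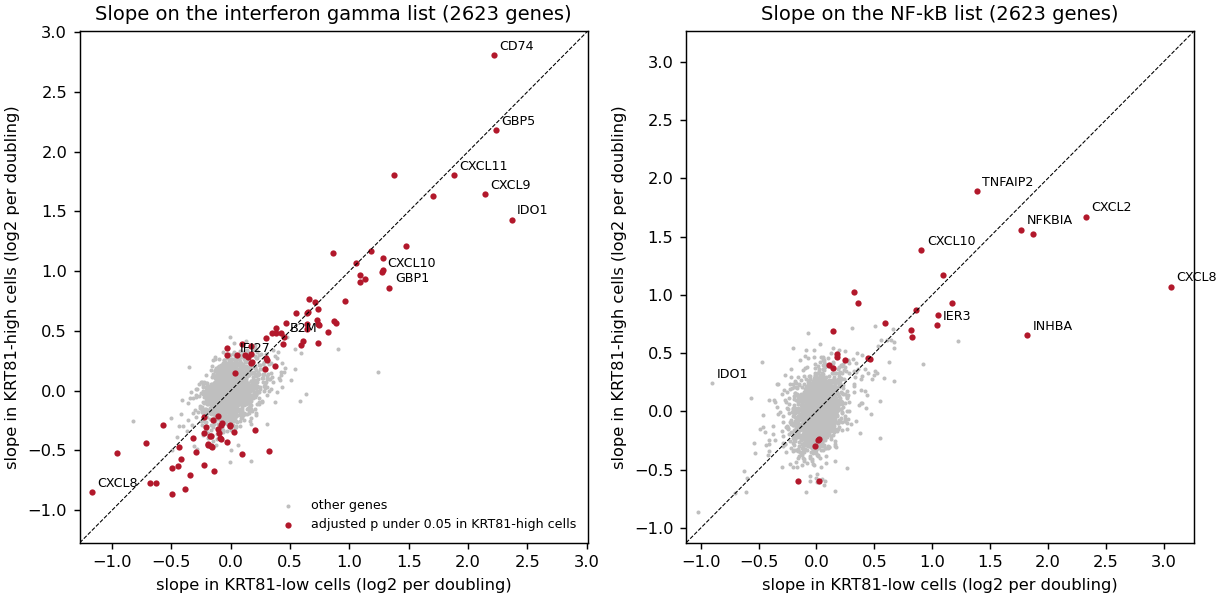
Slopes of genes tested in both populations, in log2 per doubling of the interferon gamma list (left) or NF-κB list (right), with KRT81-low cells on the horizontal axis, KRT81-high cells on the vertical axis, and the line of equal slopes dashed. Red points passed the edgeR test in KRT81-high cells, and on the right CXCL8 lies far under the line, at 1.07 against 3.06.

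The difference between both slopes was then tested with the tag pair as a block, using the odd-numbered KRT81-low cells. On the NF-κB list, 5 of 6235 genes had a higher slope in KRT81-high cells (0.0802%) and 3 a lower one (0.0481%). This balance was unsteady, with 2 higher and 8 lower with each list in a model of its own, 1 and 4 under the stricter cell filter, and 10 and 6 without mixed barcodes. CXCL8 rose by 3.06 ± 0.16 per doubling in KRT81-low cells and by 1.07 ± 0.13 in KRT81-high cells, a difference of -2.06 ± 0.14 (edgeR adjusted p = 5.5e-21). Its levels overlapped between both populations, since the lowest KRT81-high pair had 181 CPM and the highest KRT81-low pair 755 CPM. INHBA likewise rose less in KRT81-high cells, 0.65 against 1.82, a difference of -1.21 ± 0.17 (adjusted p = 3.5e-06). Both calls remained in each of 20 fits that left out 1 pair, and both kept their call without mixed barcodes, at -2.22 and -1.31. The NF-κB list that placed the cultures was itself measured in KRT81-low cells, though in other cells than the outcome. For genes that move with it in that population, this favours a lower slope in KRT81-high cells. The part of this tie in both differences was not tested.

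The other 6 calls on the NF-κB list did not pass with each list in a model of its own or under the stricter cell filter. GARS, the glycyl-tRNA synthetase, differed by -0.77 ± 0.15 (adjusted p = 0.0015), with slopes of -0.49 in KRT81-high cells, which did not pass the test, and 0.27 in KRT81-low cells. The endoplasmic reticulum chaperones HSP90B1 and CALR differed by 0.56 and 0.42, with slopes of 0.23 and 0.15 in KRT81-high cells that did not pass the test. The transcription factor SOX4 differed by 0.90 and MAL2 by 0.69. IDO1 differed by 1.07 ± 0.23 (adjusted p = 0.0090), a call lost without HTO8/HTO10 (adjusted p = 0.19). CALR lost its call in 5 of 20 fits without 1 pair and without mixed barcodes (adjusted p = 0.076).

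On the interferon gamma list, 8 of 6235 genes differed upward in KRT81-high cells (0.128%) and 24 downward (0.385%), but this count was unsteady. It was 5 with DESeq2's Wald test, 17 without mixed barcodes, and from 15 to 56 when 1 pair was left out. IDO1 rose by 2.37 ± 0.18 in KRT81-low and by 1.43 ± 0.21 in KRT81-high cells, a difference of -1.10 ± 0.20 (adjusted p = 0.00053) that passed in all 20 fits without 1 pair but not with DESeq2 (-1.16) or with each list in a model of its own (-0.54). FST, which binds activin, differed by -0.97 ± 0.15 (adjusted p = 4.2e-05) and MAL2 by -0.67 ± 0.10 (adjusted p = 8.5e-06), both also in all 20 of those fits, although MAL2 did not pass with each list in a model of its own (-0.34, adjusted p = 0.062). NEAT1, a nuclear long noncoding RNA, differed by 0.40 ± 0.08 (adjusted p = 0.0048), and did not pass there either (0.21, adjusted p = 0.23).

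Of the 28 interferon gamma genes 19 were tested here and 3 differed, all with a lower slope in KRT81-high cells, namely IDO1, GBP1 (-0.51 ± 0.10, adjusted p = 0.0052) and CXCL10 (-0.57 ± 0.13, adjusted p = 0.014). These 28 genes also form the list that placed the cultures, measured in KRT81-low cells. Their slopes in KRT81-low cells are thus tied to it in advance, which favours a lower slope in KRT81-high cells. The part of this tie in the 3 differences was not tested. Without mixed barcodes GBP1 no longer passed (-0.41, adjusted p = 0.077), nor did CXCL10 (-0.51, adjusted p = 0.089). CXCL10 was also lost without HTO2/HTO10, HTO5/HTO8, HTO5/HTO10 or HTO8/HTO10. On the NF-κB list, CXCL10 and CXCL11 had a higher slope in KRT81-high cells when mixed barcodes were left out. Their differences were 1.00 (edgeR adjusted p = 0.0011) and 1.30 (adjusted p = 0.00031), calls absent from the fit over all members. GBP1 was thus at a higher level in KRT81-high cells in every pair and had a lower slope in the fit over all members. CXCL1 (-1.19) and CXCL3 (-0.68) lost their calls without HTO2/HTO10, the pair in which CXCL1 reached 948 CPM over 34812 UMIs against a median of 13.9 CPM.

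**Figure D5:**
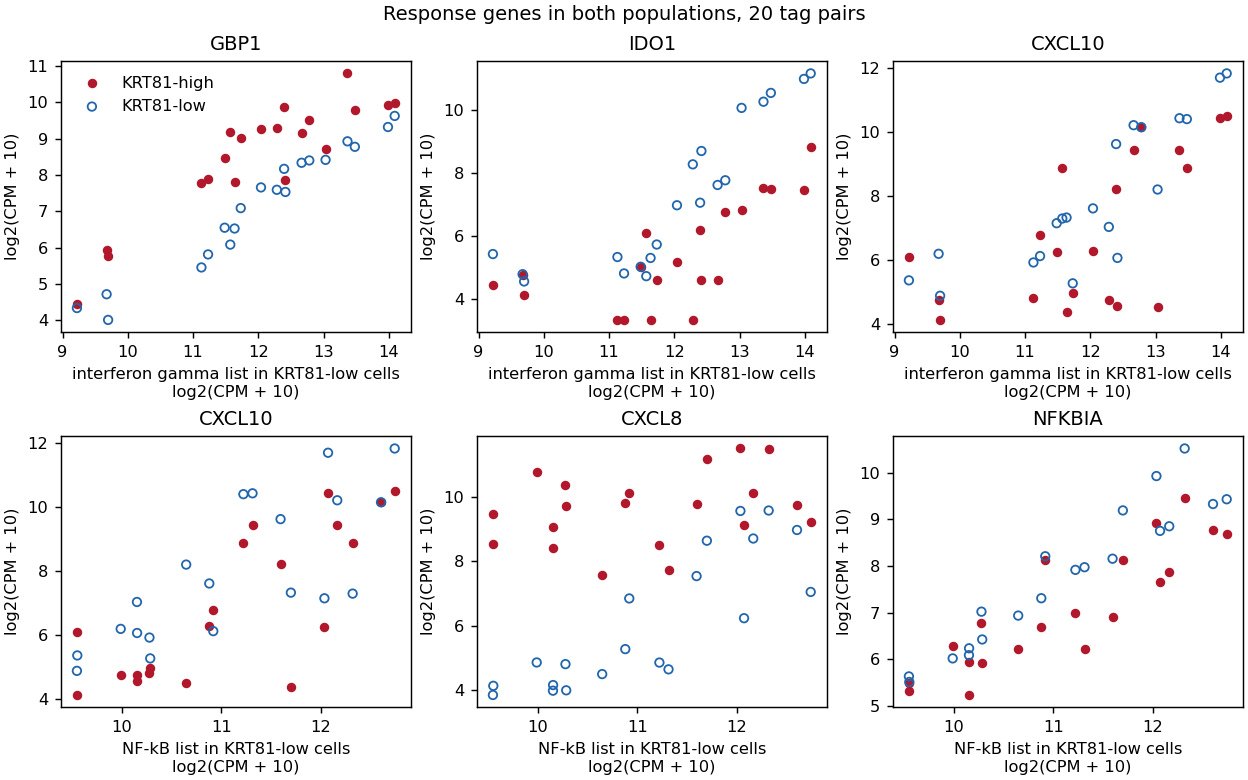
Levels of 5 response genes, as log2(CPM + 10), in KRT81-high (filled red) and KRT81-low (open blue) cells of 20 tag pairs, against log2(CPM + 10) of the interferon gamma or NF-κB list in the KRT81-low cells of the pair. GBP1 and CXCL8 are higher in the red points in all 20 pairs, IDO1 and NFKBIA lower in 19 of 20, and CXCL8 climbs more steeply in blue.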

How the data were processed

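The pool was sequenced as 2 gene-expression and 2 cell-hashing libraries. The authors deposited UMI counts, not normalized, for 36602 genes and 10 hashtags in 10660 barcodes. Per the file headers, Cell Ranger 5.0.1 made them; version 2.1.1 and GRCh38 stand in the submitters' processing notes. The annotation and cell-calling settings were not given in the sources used here. No barcode occurred in more than 1 row of the barcode table.

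Kept barcodes had 1000 genes or more and no more than 20% mitochondrial UMIs. A tag pair was assigned where both top tags had at least 3 times the count of the third, and 24 pairs were in use. Doublets were not removed by a caller. CPM are counts per 1e6 gene UMIs of a population, and totals were 4495543 UMIs in KRT81-high and 83742987 in KRT81-low cells. Intervals cover counting error only. Coordinates are GENCODE 29 on GRCh38, matched by identifier for 34616 of 36602 genes.

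Counts summed per tag pair (at least 3 KRT81-high cells) were tested with edgeR 4.0.16 (R 4.3.3) after TMM scaling and filterByExpr, at an adjusted p of 0.05, with log2(CPM + 10) of both lists as covariates. Whether pairs are separate cultures rests on the labels, and p-values measure only the spread between them. The test was checked on simulated counts, drawn independently for each sum, which does not cover cultures that share doses or times. For true slopes of -0.5 and 0.5 on the interferon gamma list, the difference test called 56% and 30% of genes. The slope test in KRT81-high cells called 98% of each. Alternatives were DESeq2 1.42.0, its size factors, other filters and KRT81 limits, a tag margin of 5, each covariate alone, and pairs or cells left out. Leaving out each pair and the mixed barcodes were chosen after the data were seen.

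The members and gene lists were chosen with earlier results of these data known. Named genes were the 7 markers, the 15 highest and 15 lowest ratios, up to 8 members a list, the 10 steepest calls each way in each test, the genes around CDKN2A and 10 other 9p genes. Genes around STAT3, CTNNA1 and HEXA, and single genes such as IFI27 by unmixed value, were chosen after their values were seen. Genes of the Y chromosome and XIST were left out. Some genes that this rule names are not reported here.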

Additional observations from a re-analysis of the deposited data

Results flagged for a closer look

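The following values were marked for a closer look because the slope of KRT81-high cells differed from that of KRT81-low cells of the same cultures by edgeR's test of the difference. On the interferon gamma list 32 genes passed it, among them IDO1, GBP1 and CXCL10, which are members of that list. The slope was lower in KRT81-high cells for CXCL1 (-1.19), IDO1 (-1.10), FST (-0.97), PRRG4 (-0.93), CXCL3 (-0.68), MAL2 (-0.67), CYB561 (-0.64), AK3 (-0.60), SAT1 (-0.58) and CXCL10 (-0.57). It was higher for BST2 (0.82), CREB5 (0.80), PMEPA1 (0.60), NEAT1 (0.40), ARF4 (0.32), UPP1 (0.32), EIF5 (0.31) and ODC1 (0.25). Of these, UPP1 lost its call in 16 of 20 fits without 1 pair, ODC1 in 13, BST2 and CREB5 in 10 each, AK3 in 9, EIF5 and CYB561 in 7 each, and ARF4 in 5. SAT1 lost it without HTO3/HTO10 (adjusted p = 0.17) and PMEPA1 without HTO2/HTO10 or HTO3/HTO10. PRRG4 lost it without HTO3/HTO10, HTO4/HTO9 or HTO5/HTO9. Without mixed barcodes SAT1, AK3, ODC1, CYB561, CXCL10 and PRRG4 did not pass (adjusted p from 0.072 to 0.17).

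On the NF-κB list 8 genes passed the test. The slope was lower in KRT81-high cells for CXCL8 (-2.06), INHBA (-1.21) and GARS (-0.77), and higher for IDO1 (1.07), SOX4 (0.90), MAL2 (0.69), HSP90B1 (0.56) and CALR (0.42). IDO1 and MAL2 passed on both lists, with opposite signs. Both lists stood in 1 model, so both differences of a gene are not independent.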

How the results depend on the processing

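No slope of a named gene that passed changed sign under the alternatives run for it, but the split of the NF-κB slope difference, 5 higher and 3 lower, became 2 and 8 with each list alone and 1 and 4 under the stricter cell filter. The count on the interferon gamma list in KRT81-high cells, 104, became 173 with no filter on low counts, and that on the NF-κB list, 30, became 12 under the stricter cell filter, 46 with no filter on low counts and 17 with a tag margin of 5. The interferon gamma slope difference, 32 genes, became 5 with DESeq2, 21 with KRT81 at 1000 CPM or more, 6 under the stricter cell filter, 16 with no filter on low counts, 17 with a tag margin of 5, 19 without members over 2 times their median UMIs, 17 without mixed barcodes and 13 without the 2 pairs farthest from the median covariate. The NF-κB slope difference, 8 genes, became 13 with KRT81 at 1000 CPM or more, 5 under the stricter cell filter, 16 without mixed barcodes and 14 without those 2 pairs. Leaving out 1 pair gave 80 to 140 genes and 23 to 43 genes for the slopes in KRT81-high cells on the interferon gamma and NF-κB lists, and 15 to 56 and 7 to 12 for the differences. The interferon gamma difference count was 15 without HTO2/HTO10 or HTO3/HTO10, 16 without HTO5/HTO9, 19 without HTO4/HTO9 or HTO6/HTO9, and 56 without HTO2/HTO9. The share of KRT81-high cells, 3.71%, became 3.18% with KRT81 at 1000 CPM or more, 7.34% under the stricter cell filter, 2.53% with a tag margin of 5, 2.56% without mixed barcodes and 2.62% with a clear pair only. The 103 genes at least 4-fold apart became 212 with a clear pair only and 229 without mixed barcodes. The cause of these moves was not tested. Among named genes, 17 of 191 interferon gamma and 33 of 148 NF-κB comparisons in KRT81-high cells lost the call, as did 80 of 172 and 20 of 77 of the slope differences. Depth limited the tests to 2659 genes in KRT81-high cells, against 9508 in KRT81-low cells.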
